A study of Mus musculus with 12 samples.

Results

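Expression of the MHC class I presentation genes was followed in naive and effector CD4+ T cells of Rinl-KO and wild-type (WT) mice. The set holds 10 genes, taken by symbol from a count table of 55487 genes. They are the heavy chains H2-K1, H2-D1 and H2-T23, the light chain B2m, the peptide transporter genes Tap1 and Tap2, the transporter-bridging Tapbp, the immunoproteasome subunits Psmb8 and Psmb9, and the transactivator Nlrc5. All 10 were among the 15905 genes with enough counts to be tested, and no member had fewer than 1627 counts in a library. Cells were sorted from spleen and peripheral lymph nodes and sequenced as bulk RNA in 4 groups of 3 libraries, numbered here as in the deposited columns. The groups were KO naive cells (libraries 7, 8 and 9), WT naive cells (1, 2 and 3), KO effector cells (10, 11 and 12) and WT effector cells (4, 5 and 6). The sort used surface markers that include CD44, low on naive and high on effector cells. Rinl encodes an exchange factor for RAB5-type GTPases, and the study compared KO with WT cells within each sort. The sources used here give no strain, no age and no description of the Rinl allele. Because no label ties the libraries to different animals, the p-values reflect library-to-library spread, which may be technical.

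Class I molecules show peptides from inside the cell to CD8+ T cells and natural killer (NK) cells. Proteasomes cut the proteins, Tap1 and Tap2 carry the peptides into the endoplasmic reticulum, tapasin (Tapbp) holds the empty heavy chain at the transporter, and the loaded heavy chain leaves with B2m. Interferons raise the pathway through Irf1 and Nlrc5, and Nlrc5 acts on a promoter module of class I genes that also holds X- and Y-type boxes. Nearly all nucleated cells carry class I molecules, and lymphocytes carry them at high levels.

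Rinl, the targeted gene, checked the labels. It had 33.0 ± 1.17 library-size-scaled counts (CPM) in KO naive libraries and 294 ± 7.58 CPM in WT naive libraries (SD, n = 3 each). It had 47.6 ± 1.8 CPM in KO effector libraries and 450 ± 12.8 CPM in WT effector libraries. Library totals ran from 20072199 to 24320247 counts in KO naive, 12409965 to 19584111 in WT naive, 11606251 to 20381010 in KO effector and 12893396 to 16428862 in WT effector cells. Markers of CD4 T cells (Cd4, Cd3d, Cd3e, Cd3g, Cd28 and Cd5) summed to 3240 to 3300 CPM in KO naive, 3240 to 3380 CPM in WT naive, 3560 to 3660 CPM in KO effector and 3540 to 3620 CPM in WT effector libraries. The naive-cell gene Ccr7 fell by 2.36 on the log2 scale in KO effector against KO naive cells and by 2.39 in WT effector against WT naive cells, and Lef1 fell by 2.24 in KO and 2.26 in WT.

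The members lie in 3 places in the genome (GRCm38), by the spans in the deposited table. B2m is at chromosome 2, 122147686 to 122153083, on the plus strand, and Nlrc5 at chromosome 8, 94434356 to 94527272, on the plus strand. The other 8 lie in the MHC on chromosome 17. Tapbp spans 33915899 to 33929292 on the plus strand and H2-K1 spans 33996017 to 34000347 on the minus strand. Psmb9 (34181987 to 34187764, minus strand), Tap1 (34187553 to 34197225, plus strand), Psmb8 (34197721 to 34201454, plus strand) and Tap2 (34203527 to 34216321, plus strand) stand next to each other. H2-D1 spans 35262730 to 35267499 on the plus strand and H2-T23 spans 36029773 to 36032855 on the minus strand. The annotated spans of Psmb9 and Tap1 overlap on opposite strands. The library kit keeps strand, but the sources used here give no strand setting for the counting, so reads in that overlap cannot be assigned to either gene with certainty.

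Promoters are shown for the heavy chains, B2m and the Psmb9 and Tap1 pair. Nlrc5 and interferon-activated factors are known to act on such promoters through short motifs. Their part in the differences between genotypes was not tested. RefSeq promoters (GRCm38.p6) were matched for 8 of the 10 members; Tap2 and Nlrc5 had no entry. Each run gives the 200 bases before the RefSeq start, 5′ to 3′ on the gene's strand, with motif matches in capitals. The motifs, searched on both strands, were the kappaB core GGGATTCCC, the interferon element of class I promoters GAAGTGAAA, the interferon-stimulated element GAAANNGAA, the X2-type box TGACG and the Y-type box CCAAT, which reads ATTGG on the other strand. No match overlapped another in these windows. RefSeq starts differ from the deposited spans given above. The 200 bases before the start lie inside those spans for H2-D1 and Psmb9, and partly inside for H2-T23. For Tapbp and Psmb8, which are not printed, they also lie inside, so they are not upstream of the annotated 5′ ends.
H2-K1, chr17:34000348-34000547, minus strand: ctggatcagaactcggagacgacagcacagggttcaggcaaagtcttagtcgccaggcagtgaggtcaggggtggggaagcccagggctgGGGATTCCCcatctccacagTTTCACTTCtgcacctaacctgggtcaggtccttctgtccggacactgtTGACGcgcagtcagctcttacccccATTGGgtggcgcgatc
H2-D1, chr17:35262894-35263093, plus strand: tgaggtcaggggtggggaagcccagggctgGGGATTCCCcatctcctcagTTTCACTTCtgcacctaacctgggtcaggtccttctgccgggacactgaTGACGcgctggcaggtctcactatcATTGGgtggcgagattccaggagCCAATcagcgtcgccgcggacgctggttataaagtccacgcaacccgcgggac
H2-T23, chr17:36032702-36032901, minus strand: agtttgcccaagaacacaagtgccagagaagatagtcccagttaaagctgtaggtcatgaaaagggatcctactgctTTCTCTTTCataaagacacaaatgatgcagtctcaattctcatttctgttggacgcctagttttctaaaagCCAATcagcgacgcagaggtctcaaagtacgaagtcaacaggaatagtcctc
B2m, chr2:122147487-122147686, plus strand: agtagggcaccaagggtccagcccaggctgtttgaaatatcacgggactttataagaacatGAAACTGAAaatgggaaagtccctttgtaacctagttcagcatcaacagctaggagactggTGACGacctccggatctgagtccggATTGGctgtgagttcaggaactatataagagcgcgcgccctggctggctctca
Psmb9, shared with Tap1, chr17:34187331-34187530, minus strand: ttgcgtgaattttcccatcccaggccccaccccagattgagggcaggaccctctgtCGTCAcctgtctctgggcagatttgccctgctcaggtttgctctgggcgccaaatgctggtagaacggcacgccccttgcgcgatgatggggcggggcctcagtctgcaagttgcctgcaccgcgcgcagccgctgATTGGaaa

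H2-K1 and H2-D1 carried the same series of motifs in the same order, a kappaB core, an interferon element reading TTTCACTTC, an X2-type and a Y-type box. From the kappaB core to the Y-type box reading CCAAT, which in H2-K1 falls just after the RefSeq start used here, 107 of 123 aligned positions (87.0%) were identical between these 2 promoters. RefSeq holds another start for H2-K1, from which that box lies at position -6, before the start. B2m held GAAACTGAA with the X2-type and Y-type boxes, H2-T23 held TTCTCTTTC and a Y-type box, and the stretch between Psmb9 and Tap1 held 1 X2-type and 1 Y-type box. The starts of Psmb9 and Tap1 lie 226 bases apart and the genes run away from each other. Tapbp held Y-type boxes only, and the Psmb8 window held none of the 5 motifs. The windows searched reached beyond the printed runs on both sides. Among 32817 RefSeq promoter windows of that searched length, the letters GGGATTCCC were found in 0.353%, GAAGTGAAA in 0.506% and GAAANNGAA in 8.55%. TGACG was found in 20.8% and CCAAT in 37.4%. The boxes of 5 letters were therefore common in any promoter, and a match describes letters and not a bound site.

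Levels between genes were compared as FPKM, which divides counts by gene length. H2-K1 stood highest in each group, at 2504 ± 68.05 FPKM in KO naive, 2253 ± 37.42 in WT naive, 2848 ± 73.3 in KO effector and 2701 ± 91.54 in WT effector libraries (SD, n = 3 each). In both naive groups the order ran H2-K1, B2m, H2-D1, H2-T23, Psmb8, Tap1, Tapbp, Psmb9, Tap2 and Nlrc5, and no 2 neighbours in that order overlapped in their library values. In KO effector libraries Tap1 overlapped Tapbp and Tap2 overlapped Psmb9. In WT effector libraries H2-K1 overlapped B2m and Tapbp overlapped Tap1. The heavy chain H2-K1 and the light chain B2m were thus far above the transcripts of the transporter, the proteasome subunits and Nlrc5, and the lowest member, Nlrc5, still averaged 66.84 FPKM in its lowest group, WT naive.

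**Figure D1:**
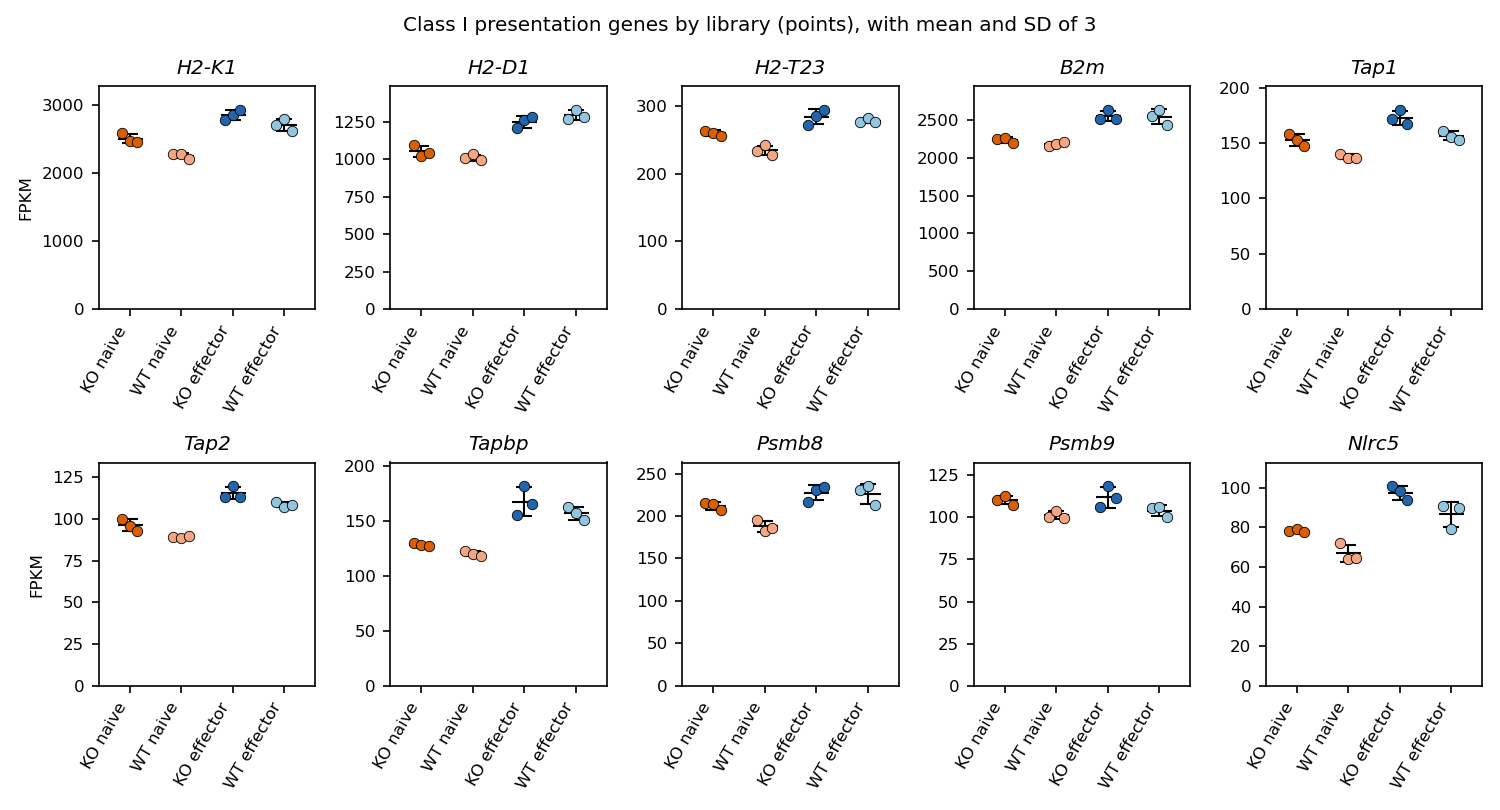
FPKM of the 10 class I presentation genes in each library (points), with group means and SD (bars, n = 3 libraries), for KO naive, WT naive, KO effector and WT effector cells; each panel has its own axis, starting at 0. For Nlrc5, KO naive libraries lie between 77.4 and 79.0 FPKM and WT naive libraries between 64.0 and 71.9 FPKM, and both effector groups lie higher.

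In naive cells, 1 of the 10 class I genes passed the test between genotypes. Nlrc5 was 16.3% higher in KO naive than in WT naive libraries, and the other 9 members, whose estimates were 2.11% to 12.3% higher, did not pass an adjusted p of 0.05. For Nlrc5 the count stands beside a background of 0.679% of the 15905 tested genes called higher and 1.18% called in either direction. The FPKM values of KO naive libraries lay above those of WT naive libraries, without overlap, for 8 of the 10 members, against 11.6% of tested genes. The median log2 fold change of the members was 0.128, against 0 over all tested genes. An unadjusted p under 0.05 was found for 7 of the 10, against 11.9% of tested genes in either direction. The members were chosen with earlier results of these data known. Tested genes were not matched to them for level, so these shares, here and in the comparisons below, are descriptive.

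Nlrc5 encodes the transactivator that drives class I genes. It had 77.9, 79.0 and 77.4 FPKM in KO naive libraries, against 71.9, 64.0 and 64.7 FPKM in WT naive libraries. The groups did not overlap, and WT library 1 stood nearest to the KO libraries. The log2 fold change was 0.22 ± 0.053 (SE), with a 95% interval of 0.108 to 0.329 and an edgeR adjusted p of 0.0417. The call was lost without WT naive library 2 (adjusted p = 0.227), WT naive library 3 (0.156) or KO naive libraries 7 (0.0963), 8 (0.152) or 9 (0.11), while the log2 fold change stayed at 0.20 to 0.23 in these fits.

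Of the heavy chains in naive cells, H2-K1 and H2-D1 are the classical molecules and H2-T23 encodes Qa-1, which shows leader peptides of other class I chains to NK-cell receptors. H2-K1 had 2582, 2470.5 and 2459 FPKM in KO naive libraries, against 2275, 2274 and 2209.7 FPKM in WT naive libraries. KO libraries were higher without overlap, and the log2 fold change was 0.15 ± 0.044 (edgeR adjusted p = 0.124). H2-T23 had 264, 260.3 and 255 FPKM in KO naive libraries, against 234, 242 and 228 FPKM in WT naive libraries, also without overlap, with a log2 fold change of 0.14 ± 0.043 (adjusted p = 0.129). H2-D1 had 1091, 1022 and 1044 FPKM in KO naive libraries, against 1005, 1032 and 994 FPKM in WT naive libraries. These H2-D1 groups overlapped, and the log2 fold change was 0.05 ± 0.044 (adjusted p = 0.708). B2m, the light chain shared by the heavy chains, lay at 2192 to 2266 FPKM in KO naive and 2159 to 2202 FPKM in WT naive libraries, with overlap (0.03 ± 0.043, adjusted p = 0.851). Some transcript sequence is shared among heavy chains: of the 50-base windows of the annotated transcripts, 28.8% for H2-T23, 13.9% for H2-D1 and 6.87% for H2-K1 also occur in another gene. With 100-base windows the shares were 7.28% for H2-T23, 4.09% for H2-D1 and 0% for H2-K1, so the overlap depends on the read length, which the sources used here do not give. The sources used here do not say how shared reads were counted, and heavy-chain values are uncertain to that extent.

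Tap1 had 158, 152 and 147 FPKM in KO naive libraries, against 139.9, 137 and 137 FPKM in WT naive libraries. The groups did not overlap, and the log2 fold change was 0.14 ± 0.043 (edgeR adjusted p = 0.141). Its partner Tap2 lay at 92.8 to 100.1 FPKM in KO naive and 88.7 to 89.7 FPKM in WT naive libraries (0.10 ± 0.042, adjusted p = 0.308). Tapbp lay at 127 to 129 FPKM in KO naive and 118 to 122 FPKM in WT naive libraries (0.09 ± 0.050, adjusted p = 0.531). Neither overlapped between genotypes. The immunoproteasome subunits, which replace catalytic subunits of the standard proteasome, showed the same order of groups. Psmb8 had 215, 214 and 207 FPKM in KO naive libraries, against 195, 183 and 186 FPKM in WT naive libraries, and its log2 fold change of 0.17 ± 0.047 was the second highest of the set (adjusted p = 0.0902). Psmb9 lay at 108 to 113 FPKM in KO naive and 99.4 to 104 FPKM in WT naive libraries, with a log2 fold change of 0.12 ± 0.047 (adjusted p = 0.294).

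How many members passed in naive cells depended on the fit. DESeq2 called 5 of the 10, as did the edgeR fit of the naive groups alone, and both added H2-K1, H2-T23, Tap1 and Psmb8 to Nlrc5; limma on FPKM called 0.

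**Figure D2:**
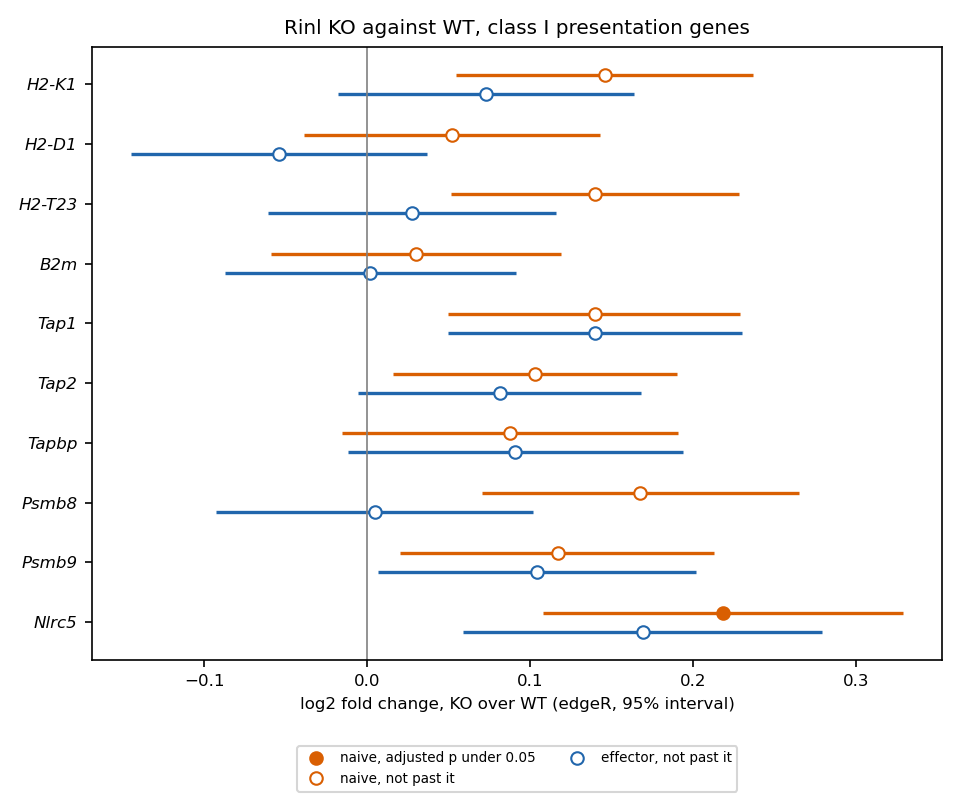
Log2 fold change of each class I presentation gene, KO over WT, in naive cells (upper point of each pair) and effector cells (lower point), from edgeR, with 95% intervals; filled points passed an adjusted p of 0.05. Nlrc5 in naive cells is the filled point, at 0.22, and H2-D1 in effector cells is the member below 0, at -0.05.

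In effector cells edgeR called 0 of the 10 between genotypes, against a background of 3.16% of tested genes called in either direction and 1.45% called higher. At an unadjusted p under 0.05 there were 3 (Tap1, Nlrc5 and Psmb9), against 16.1% of tested genes; DESeq2 called 1, Tap1, and limma-voom called 0. FPKM values of KO effector libraries lay above those of WT effector libraries without overlap for Tap1, Tap2 and Nlrc5, 3 of 10, against 9.5% of tested genes. The median log2 fold change of the members was 0.08, against 0.00 over all tested genes.

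Nlrc5 had 101, 98.2 and 93.6 FPKM in KO effector libraries, against 90.7, 79.1 and 89.9 FPKM in WT effector libraries. The groups did not overlap, with WT library 5 standing lowest, and the log2 fold change was 0.17 ± 0.053 (95% interval 0.0589 to 0.279, edgeR adjusted p = 0.0871). Tap1 had 172, 179.8 and 167 FPKM in KO effector libraries, against 161, 156 and 153 FPKM in WT effector libraries. Its log2 fold change was 0.14 ± 0.043 (95% interval 0.0499 to 0.23, adjusted p = 0.083). Tap2 lay at 113 to 119 FPKM in KO effector and 107 to 110.3 FPKM in WT effector libraries (0.08 ± 0.042, adjusted p = 0.353).

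The heavy chains overlapped between genotypes in effector cells. H2-K1 had 2777, 2842 and 2924 FPKM in KO effector libraries, against 2700.4, 2792 and 2609 FPKM in WT effector libraries (0.07 ± 0.044, edgeR adjusted p = 0.45). H2-D1 had 1205, 1259 and 1281 FPKM in KO effector libraries, against 1267, 1328 and 1284 FPKM in WT effector libraries, and its estimate was the only negative one of the set (-0.05 ± 0.044, adjusted p = 0.6). H2-T23 lay at 272 to 294 FPKM in KO effector and 276 to 282 FPKM in WT effector libraries (adjusted p = 0.818), and B2m at 2507 to 2627 FPKM in KO effector and 2433 to 2630.4 FPKM in WT effector libraries (adjusted p = 0.99). The remaining members also overlapped. Tapbp had 155, 181 and 166 FPKM in KO effector libraries, against 163, 157 and 151 FPKM in WT effector libraries (0.09 ± 0.050, adjusted p = 0.39). Psmb8 had 217, 231 and 235 FPKM in KO effector libraries, against 231, 235 and 213 FPKM in WT effector libraries (adjusted p = 0.978). Psmb9 lay at 106 to 118 FPKM in KO effector and 100.4 to 106 FPKM in WT effector libraries (0.10 ± 0.047, adjusted p = 0.273).

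Whether the genotype difference itself differed between the sorts was tested as an interaction. EdgeR called 0 of the 10 members, against 0.145% of tested genes, and DESeq2 and limma-voom also called 0. At an unadjusted p under 0.05 there was 1 member, against 9.19% of tested genes. That member was Psmb8 (edgeR adjusted p = 0.436). Its genotype difference was 0.16 ± 0.067 lower on the log2 scale in effector than in naive cells, with a 95% interval of -0.301 to -0.0251. For Nlrc5 and Tap1, the intervals of the difference still allowed a change in either direction, running from -0.205 to 0.107 for Nlrc5 and from -0.127 to 0.127 for Tap1.

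The ratio of H2-K1 to H2-D1, which does not depend on library scaling, was chosen after the values were seen and is given without a test. It was 2.37, 2.42 and 2.36 in KO naive libraries, against 2.26, 2.20 and 2.22 in WT naive libraries. It was 2.30, 2.26 and 2.28 in KO effector libraries, against 2.13, 2.10 and 2.03 in WT effector libraries. KO libraries lay above WT libraries in both sorts, and effector libraries lay below naive libraries in both genotypes. How often other pairs of genes separate in this way was not counted. Of the 50-base windows of H2-D1, 13.9% occur in another gene, most often H2-K1, so shared reads make the ratio uncertain.

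In KO cells 8 of the 10 members rose in effector over naive libraries, with log2 fold changes of 0.13 to 0.39 among those called, and in WT cells 9 rose, by 0.18 to 0.39. Between the sorts 58.4% of tested genes were called in KO, with 31.6% higher in effector cells, and 56.2% in WT, with 30.2% higher in effector cells. FPKM groups did not overlap, with effector libraries higher, for 9 of 10 members in both genotypes, against 33.9% of tested genes in KO and 32.5% in WT. Psmb9 was the exception in both. The members' median log2 fold change was 0.189 in KO, against 0.01 over all tested genes, and 0.263 in WT, against 0.01. Both comparisons come from the libraries already used between genotypes.

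Tapbp had the highest estimate, 0.39 ± 0.050 in KO (edgeR adjusted p = 3.26e-07) and 0.39 ± 0.050 in WT (adjusted p = 4.63e-07). Nlrc5 followed in both, at 0.32 ± 0.053 in KO (adjusted p = 1.4e-05) and 0.37 ± 0.054 in WT (adjusted p = 2.4e-06). H2-D1 rose by 0.25 ± 0.044 in KO and 0.35 ± 0.044 in WT, and H2-K1 rose by 0.19 ± 0.044 in KO and 0.26 ± 0.044 in WT. Tap2 rose by 0.26 in KO and 0.29 in WT, Tap1 by 0.18 in both, and B2m by 0.19 in KO and 0.22 in WT. H2-T23 rose by 0.13 ± 0.043 in KO (adjusted p = 0.0111) and by 0.24 ± 0.043 in WT. The KO call of H2-T23 was lost without KO naive library 8 (adjusted p = 0.0503), KO naive library 9 (0.0837) or KO effector library 12 (0.0592).

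The immunoproteasome subunits had the lowest estimates of the set in KO cells. The KO estimate of Psmb8 was 0.10 ± 0.047 (edgeR adjusted p = 0.0617), which passed without WT effector library 6 (0.0497) or KO effector library 10 (0.0231), and in WT Psmb8 rose by 0.27 ± 0.047 (adjusted p = 3.75e-05). Psmb9 was at 0.02 ± 0.046 in KO (adjusted p = 0.672) and 0.04 ± 0.047 in WT (adjusted p = 0.527), and its libraries overlapped between the sorts. The 95% interval of Psmb9 was -0.0712 to 0.121 in KO and -0.0606 to 0.135 in WT.

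**Figure D3:**
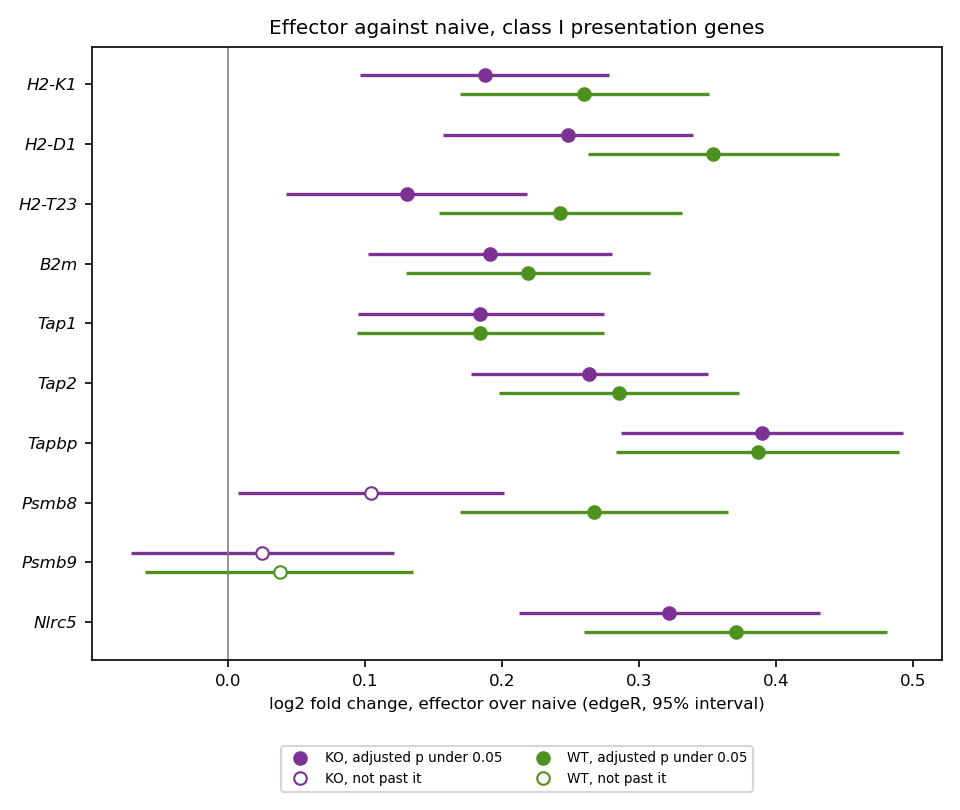
Log2 fold change of each class I presentation gene, effector over naive, in KO cells (upper point of each pair) and WT cells (lower point), from edgeR, with 95% intervals; filled points passed an adjusted p of 0.05. The 3 open points are Psmb9 in both genotypes and Psmb8 in KO cells.

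The immunoproteasome transcripts were set against the standard subunit that each replaces. Psmb8 and Psmb10 had higher FPKM than their counterparts, while Psmb9 was close to Psmb6. Such ratios between genes depend on the gene lengths used for FPKM. Psmb8 over Psmb5 was 5.68 ± 0.061 in KO naive, 5.39 ± 0.37 in WT naive, 5.66 ± 0.46 in KO effector and 5.22 ± 0.14 in WT effector libraries (FPKM ratios, SD, n = 3 each). Psmb9 over Psmb6 was 1.08 ± 0.072 in KO naive, 1.04 ± 0.03 in WT naive, 1.14 ± 0.048 in KO effector and 1.04 ± 0.014 in WT effector libraries. Psmb10 over Psmb7 was 1.83 ± 0.021 in KO naive, 1.65 ± 0.13 in WT naive, 1.79 ± 0.12 in KO effector and 1.82 ± 0.11 in WT effector libraries. Between genotypes, the libraries overlapped for Psmb8 over Psmb5 in naive cells and for Psmb9 over Psmb6 in naive cells. They did not overlap for Psmb9 over Psmb6 in effector cells, where KO libraries ran from 1.11 to 1.20 and WT libraries from 1.02 to 1.05, nor for Psmb10 over Psmb7 in naive cells, where KO libraries ran from 1.82 to 1.86 and WT libraries from 1.5 to 1.73. No test was made on these ratios.

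The other heavy chains that pair with B2m (17 genes, 16 tested) had 3 genes higher and 0 lower in KO naive cells, with a median log2 fold change of 0.174. These were H2-T22, which binds gamma-delta T-cell receptors, at 0.20 ± 0.043 (edgeR adjusted p = 0.0237), H2-Q10 at 0.19 ± 0.046 (0.0382) and the Qa-2 gene H2-Q7 at 0.22 ± 0.053 (0.0387). Without WT naive library 3 the adjusted p was 0.112, 0.145 and 0.144 in that order, and it was above 0.05 for each of these genes without KO naive library 7 (0.0757, 0.131 and 0.149), 8 (0.0808, 0.103 and 0.1) or 9 (0.0586, 0.0811 and 0.0942). Without WT naive library 2 it was 0.125 for H2-Q10 and 0.268 for H2-Q7, and limma on FPKM called none of them. Of their transcripts' 50-base windows, 43.9% for H2-T22, 7.73% for H2-Q10 and 34.9% for H2-Q7 occur in another gene, and of the 100-base windows 12.4%, 1.93% and 17.2% in the same order, so the values of these genes are uncertain. In KO effector cells edgeR called 0 of the 16, with 3 at an unadjusted p under 0.05 and 0 by DESeq2 or limma-voom, and H2-Q7 was at 0.03 ± 0.053. Between sorts, 9 rose and 4 fell in KO effector cells, and 10 rose and 4 fell in WT effector cells. H2-Q2 rose by 1.37 in KO and 1.56 in WT, while H2-T24 fell by 0.55 in KO and 0.42 in WT and H2-T10 fell by 0.35 in both.

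Of the proteasome genes outside the set, Psmb10, the activator subunits Psme1 and Psme2 and the assembly factor Pomp had a median of 0.161 in KO naive cells. EdgeR called 0 of these 4, with 4 at an unadjusted p under 0.05, DESeq2 called 1 and limma-voom 0; Psme1 was at 0.17 ± 0.049 (adjusted p = 0.0975) and Psme2 at 0.16 ± 0.048 (0.113). In KO effector cells their median was 0.04, with 0 called by any of these tools and 0 at an unadjusted p under 0.05. The 14 subunits of the standard 20S core had medians of 0.05 in KO naive and -0.01 in KO effector cells. EdgeR called 0 of the 14 in either sort, as did DESeq2 and limma-voom, with 2 at an unadjusted p under 0.05 in naive and 0 in effector cells. Between sorts, 1 of the 4 and 4 of the 14 rose in KO effector cells, and 3 of the 4 and 5 of the 14 rose in WT effector cells; Pomp rose by 0.22 in KO and 0.48 in WT.

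The 12 genes of peptide loading and trimming outside the set, such as the chaperones Calr and Canx and the aminopeptidase Erap1, gave medians of -0.04 in KO naive and 0.00 in KO effector cells. EdgeR, DESeq2 and limma-voom called 0 of the 12 in either sort, with 2 at an unadjusted p under 0.05 in naive cells and 3 in effector cells. Calr, which holds newly made heavy chains, was at -0.12 ± 0.046 in KO naive cells (edgeR adjusted p = 0.283) and -0.08 ± 0.046 in KO effector cells (0.409). Between sorts, 6 rose and 1 fell in KO effector cells, and 6 rose and 3 fell in WT effector cells. The endoplasmic chaperone Hspa5 rose by 0.84 in KO and 0.88 in WT, and the oxidoreductase Pdia3 by 0.46 in KO and 0.47 in WT.

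Regulators of class I transcription (17 genes) were read beside the set. EdgeR called 2 higher and 0 lower in KO naive cells, against 0.679% of tested genes called higher, with a median log2 fold change of 0.0627. In KO effector cells it called 3 higher and 0 lower, against 1.45%, with a median of 0.0331. DESeq2 called 3 in each sort, and limma-voom 2 in naive and 3 in effector cells. Irf1, an activator of Nlrc5 and of class I promoters, had 350.1, 360.0 and 333 CPM in KO naive libraries, against 299, 283 and 293 CPM in WT naive libraries (0.25 ± 0.046, edgeR adjusted p = 0.00516, or 0.0534 with limma on log2(FPKM + 1)). The Irf1 groups did not overlap. In effector cells Irf1 was not called, at 333.7 ± 12.7 CPM in KO and 322.1 ± 13.6 CPM in WT libraries (SD, n = 3 each). In KO effector cells Stat2, a carrier of type I interferon signals, rose by 0.23 ± 0.044 (edgeR adjusted p = 0.00342) and its partner Irf9 by 0.18 ± 0.042 (0.018). The Irf9 call was lost without WT effector library 6 (0.0722), KO effector library 11 (0.0503) or KO effector library 12 (0.0607). In naive cells edgeR called neither. Stat2 averaged 130.2 CPM in KO naive and 119.2 CPM in WT naive libraries. Irf9 averaged 199.8 CPM in KO naive and 178.7 CPM in WT naive libraries, and DESeq2 called it (adjusted p = 0.00478).

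The X- and Y-box factors Rfx5, Rfxap, Rfxank, Nfya, Nfyb and Nfyc were not called between genotypes in either sort. Between sorts, the interferon-gamma receptor gene Ifngr1 rose by 0.87 in KO and 0.88 in WT effector cells, while Ifngr2, which encodes the other chain, fell by 1.67 in KO and 1.82 in WT. Irf8 rose by 1.90 in KO and 2.04 in WT.

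A list of 12 other interferon-induced genes was read beside the class I genes. In KO naive cells edgeR called 8 of the 12 higher and 0 lower, against 0.679% of tested genes called higher, with a median log2 fold change of 0.45. In KO effector cells it called 8 higher and 0 lower, against 1.45%, with a median of 0.441. DESeq2 called 10 higher in naive and 8 in effector cells, and limma-voom 6 and 9. The naive calls of Ifit1 and Oasl2 held in 20 of 20 alternatives and that of Usp18 in 15. Ifit1 rose by 0.46 ± 0.067 in KO naive (edgeR adjusted p = 0.000773) and 0.52 ± 0.069 in KO effector cells (0.000114), and Oasl2 by 0.48 ± 0.073 in KO naive (0.00079) and 0.65 ± 0.077 in KO effector cells. The list's summed level was 787 to 817 CPM in KO naive and 608 to 664 CPM in WT naive libraries, and 828 to 909 CPM in KO effector and 668 to 761 CPM in WT effector libraries. The summed level of the 10 class I genes was 10950 to 11410 CPM in KO naive and 10190 to 10460 CPM in WT naive libraries, and 12580 to 13090 CPM in KO effector and 12260 to 12870 CPM in WT effector libraries. Between sorts, 4 interferon-induced genes rose and 1 fell in KO effector cells, and 6 rose and 3 fell in WT effector cells. How the 2 lists are related was not tested.

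**Figure D4:**
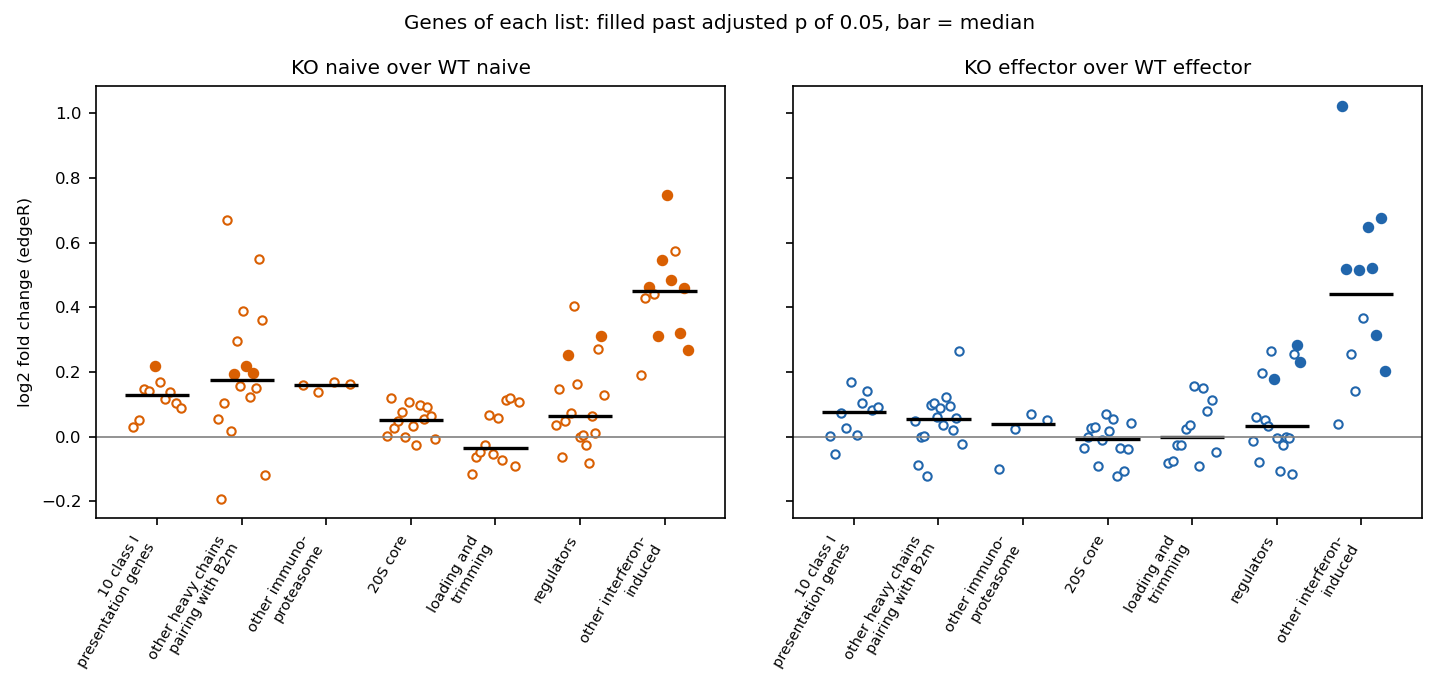
Log2 fold changes of the genes of each list, KO over WT, in naive cells (left) and effector cells (right), from edgeR; each point is a gene, filled where its adjusted p was under 0.05, and black bars are list medians. The 10 class I presentation genes have medians of 0.128 and 0.0772, below those of the interferon-induced list (0.45 and 0.441).

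Markers of other cells were measured because B cells and myeloid cells also carry class I transcripts. In bulk samples, fewer cells of a type and less RNA per cell cannot be told apart. Markers of B cells (8 genes) summed to 4.84 to 6.66 CPM in KO naive and 2.16 to 3.81 CPM in WT naive libraries, and to 24.4 to 31.3 CPM in KO effector and 25.3 to 33.7 CPM in WT effector libraries. Myeloid markers (10 genes) summed to 14.9 to 26.7 CPM in KO naive and 3.89 to 14.7 CPM in WT naive libraries, and to 20.8 to 35.5 CPM in KO effector and 6.45 to 30.3 CPM in WT effector libraries. Both sums were higher in every KO naive than in every WT naive library. In naive cells edgeR called 0 of the 7 tested B-cell and 0 of the 8 tested myeloid markers, with 4 and 3 at an unadjusted p under 0.05; DESeq2 and limma-voom also called 0. In KO effector cells 1 B-cell marker, Cd22, fell by 0.60 (adjusted p = 0.035), a call lost without library 4, 7, 10, 11 or 12, with adjusted p of 0.0532 to 0.159. NK markers (6 genes) summed to 132 to 171 CPM in KO effector and 195 to 227 CPM in WT effector libraries, and to 18.5 to 20.5 CPM in KO naive and 20.4 to 22.7 CPM in WT naive libraries. Of the 6, Klrb1c, Klrd1 and Klrk1 fell in KO effector cells. The Klrk1 call (adjusted p = 0.0373) held in 9 of 20 alternatives and was lost without library 1, 5, 6, 7, 8, 9, 11 or 12, with adjusted p of 0.0586 to 0.14.

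Class II presentation genes summed to 106 to 110 CPM in KO naive and 92.9 to 111 CPM in WT naive libraries, and to 146 to 173 CPM in KO effector and 121 to 132 CPM in WT effector libraries. EdgeR called 0 of these 10 in either genotype comparison, with 4 at an unadjusted p under 0.05 in naive and 3 in effector cells, and DESeq2 called 1 in naive cells, Cd74. The median log2 fold change of the list was 0.621 in KO naive cells, with 9 of 10 estimates above 0, and 0.377 in KO effector cells, with 8 of 10 above 0. Cd74, the class II invariant chain, averaged 10.4 ± 2.24 CPM in KO naive and 5.14 ± 1.58 CPM in WT naive libraries, and 70.3 ± 14.4 CPM in KO effector and 44.9 ± 6.76 CPM in WT effector libraries (SD, n = 3 each). Its groups did not overlap in either sort, with log2 fold changes of 1.09 ± 0.31 in naive (edgeR adjusted p = 0.182, or 0.00684 with DESeq2) and 0.65 ± 0.189 in effector cells (edgeR adjusted p = 0.126). CD8 markers (2 genes) summed to 19.8 to 21.8 CPM in KO naive, 19.5 to 20.8 CPM in WT naive, 7.19 to 8.04 CPM in KO effector and 5.52 to 6.7 CPM in WT effector libraries. Erythroid markers summed to 3.64 to 5.61 CPM in KO naive and 3.84 to 20.2 CPM in WT naive libraries. Their sums were 7.85 to 8.71 CPM in KO effector and 3.56 to 22 CPM in WT effector libraries. WT naive library 3 and WT effector library 6 held the highest erythroid and myeloid sums and the lowest class I sums of their groups. No library of either KO group held all of these. Plasma cell markers lay at 46.6 to 46.8 CPM in KO naive and 41.1 to 47.4 CPM in WT naive libraries. They lay at 79.1 to 84.1 CPM in KO effector and 74.2 to 78.6 CPM in WT effector libraries. Most of the plasma cell sum was Xbp1, which T cells also express. Jchain, the joining chain of secreted antibody, averaged 5.39 ± 1.87 CPM in KO naive and 1.29 ± 1.35 CPM in WT naive libraries, and 6.93 ± 2.15 CPM in KO effector and 2.63 ± 0.808 CPM in WT effector libraries. Its groups did not overlap in either sort, and edgeR gave log2 fold changes of 2.27 ± 0.60 in naive (adjusted p = 0.15) and 1.39 ± 0.515 in effector cells (0.223). Between 0 and 3 of a list's markers were at 0 in a library. The sort gene sum of Cd44, Tbx21, Cxcr3 and Icos was 710 to 797 CPM in KO effector and 794 to 872 CPM in WT effector libraries, and 57.8 to 66.7 CPM in KO naive and 64.5 to 71.3 CPM in WT naive libraries. Of these 4, edgeR called Tbx21 in KO effector cells, and 3 had a lower level there at an unadjusted p under 0.05. Tbx21, which encodes T-bet, fell to 61.8 ± 3.35 CPM in KO effector libraries, against 93.4 ± 13.9 CPM in WT effector libraries (log2 fold change -0.59 ± 0.079, adjusted p = 0.000187; 0.084 with limma on log2(FPKM + 0.1)). The part of these markers in the class I differences was not tested.

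The chromosome 17 members were also set beside their neighbours. From Tapbp to H2-T23 (33915899 to 36032855) the annotation holds 203 other genes, of which 118 were tested. In KO naive cells 2.54% of these 118 were called, against 1.18% of all tested genes, and in KO effector cells 0.847%, against 3.16%. In KO effector against KO naive cells 60.2% were called, against 58.4%, and in WT effector against WT naive cells 56.8%, against 56.2%. The neighbours called in KO naive cells were H2-Q10, H2-Q7 and the collagen gene Col11a2. Col11a2 fell by 0.30 ± 0.058 in KO naive cells (edgeR adjusted p = 0.00948) and by 0.41 ± 0.090 in KO effector cells (0.0123). The naive call was lost without WT naive library 1 (0.0611) or 2 (0.0758) or KO naive library 8 (0.112) or 9 (0.0548), and the effector call without WT effector library 6 (0.052) or KO effector library 11 (0.109). The median log2 fold change of the neighbours was 0.03 in KO naive and in KO effector cells.

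Across the 12 libraries, with each sort centred on its own mean so that the difference between sorts does not count, the members varied together to different degrees. Pearson r over the 45 pairs ran from -0.177 to 0.958 with a median of 0.644, as a description over libraries that share depth and genotype. The transporter pair Tap1 and Tap2 had the highest r, 0.958, then H2-K1 with H2-T23 at 0.91, Tapbp with Psmb9 at 0.907 and H2-K1 with Psmb8 at 0.86. Of the 50-base windows of H2-T23, 28.8% occur in another gene, most often H2-K1. The part of shared reads in the r of H2-K1 with H2-T23 was not tested. Among 10985 genes outside the set with a mean of at least 5 CPM, those whose centred log2 CPM was most like the members' mean profile were Ier5 (r = 0.954), Gadd45b (0.939), Ints11 (0.929), Ptpn7 (0.925) and Prdm11 (0.916), over the same 12 libraries.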

How the data were processed

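Sorted-cell RNA was made into stranded poly(A) libraries, per the labels' protocols. The authors deposited whole-number counts per gene and FPKM for 12 libraries, per the file headers. STAR, Picard, DESeq2 1.30.0, mm10 and GRCm38 are named, without roles, in the submitters' processing notes; the sources used here name no counter and no strand setting. For 11921 genes with at least 20 counts, the deposited FPKM equalled the counts divided by 1 length per gene and 1 factor per library, so the tables are 1 measurement. FPKM serve for levels and counts for tests.

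Counts were analysed with edgeR 4.0.16 in R 4.3.3: filterByExpr, TMM (0.968 to 1.04), and 1 robust quasi-likelihood fit of 4 groups, with p-values adjusted over 15905 genes by Benjamini-Hochberg at 0.05. CPM are TMM-normalised. The biological coefficient of variation was 5.21%. Intervals of 95% use the moderated t quantile. Alternatives were DESeq2 1.42.0, DESeq2's size factors, limma-voom and limma 3.58.1 on log2(FPKM + 1) and log2(FPKM + 0.1), other filters, the compared groups alone, and each library left out. The fit was tested on simulated data. The seeded changes were larger than the members' genotype estimates, so effects of their size were not covered. Promoters came from RefSeq, searched with motif cores shortened after longer forms had been matched, and shared windows of 50 and 100 bases from GENCODE transcripts (GRCm38), read with Python 3.11.15.

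The members and gene lists were chosen with earlier results of these data known. The text names all members, Rinl, and from each list up to 4 called genes by p, or the 2 most abundant where fewer than 2 were called, not all of which are printed; genes most like the members by r; and called neighbours. Erap1, Canx and the X- and Y-box genes are named as list contents only, and Psmb5, Psmb6, Psmb7 and Psmb10 for the ratios. Some genes of the lists are not reported here.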

Additional observations from a re-analysis of the deposited data

Results flagged for a closer look

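All tested genes of the lists were searched for FPKM groups that separated between genotypes in opposite directions in the sorts, or for a passing edgeR interaction. The search returned the NK markers Klrb1c and Klrk1. For both, every KO naive library lay above every WT naive library, and every KO effector library lay below every WT effector library. The share of all tested genes with this pattern was not counted. For Klrb1c, which encodes NK1.1, the log2 difference of the genotype effects, effector minus naive, was -3.83 ± 0.908 (SE, edgeR interaction, adjusted p = 0.101). It averaged 0.268 CPM in KO naive and 0.0175 CPM in WT naive libraries, with 4 to 8 and 0 to 1 counts per library, and 56.1 CPM in KO effector and 77.4 CPM in WT effector libraries. For Klrk1, which encodes NKG2D, a receptor for class I-like ligands, the difference was -2.38 ± 0.838 (edgeR adjusted p = 0.38), while DESeq2 gave -2.44 (adjusted p = 0.0274). It averaged 0.525 CPM in KO naive and 0.125 CPM in WT naive libraries, with 9 to 15 and 0 to 5 counts, and 47.0 CPM in KO effector and 67.9 CPM in WT effector libraries. Neither passed edgeR's test of the difference, Klrk1 passed that of DESeq2, and the naive sides rest on few counts. Between genotypes in naive cells, edgeR, DESeq2 and limma-voom called 0 of the NK markers. Because both genes were picked by these same values, the tests of the difference are descriptive.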

How the results depend on the processing

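No paired analysis was possible because the deposited columns carry library numbers and not the replicate numbers of the titles. Class I genes called in KO naive cells, 1 as reported, were 5 with DESeq2, 2 with limma-voom, 3 with no filter on low counts, 5 with the compared groups alone, 0 with limma on either FPKM scale and 0 to 1 with a library left out. In KO effector cells, 0 as reported, DESeq2 called 1 and the unfiltered fit 1. Of all genes, 187 were called in KO naive cells, against 501 unfiltered, 528 with the compared groups alone, 40 and 57 with limma on log2(FPKM + 1) and log2(FPKM + 0.1), and 66 to 255 with a library left out. In KO effector cells 503 were called, against 959, 230, 262 and 139 in the same order and 194 to 662 with a library left out. For the difference, 23 were called, against 50 with DESeq2, 277 unfiltered, 13 and 8 with limma and 10 to 85 with a library left out. Signs turned for estimates near 0. B2m in effector cells was -0.00151 with a mean of at least 5 CPM, -0.00192 with the compared groups alone and -0.0271 to 0.0305 with a library left out, and Psmb8 there -0.0361 to 0.0402. The difference for Tap1 was -0.00281 with DESeq2's size factors, -0.00235 with DESeq2, -0.00393 unfiltered, -0.0108 at 5 CPM, -0.00296 and -0.00308 with limma and -0.0367 to 0.0245 with a library left out. That for Tapbp was -0.00088 unfiltered, -0.0078 at 5 CPM, -0.00264 and -0.00282 with limma and -0.0586 to 0.0579 with a library left out. Leaving out a library also gave -0.0565 to 0.0295 for Psmb9 and -0.0569 to 0.000497 for B2m in the difference, and -0.0205 to 0.0645 for Psmb9 in effector against naive KO cells. The cause of these changes was not tested. Of the genes outside the set that the naming rule takes and that were called between genotypes, 7 of 11 in naive cells and 7 of 14 in effector cells lost the call under at least 1 alternative.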
